A study of Bos taurus and Sus scrofa with 10 samples.

Results

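Trophectoderm transcription factors are the DNA-binding proteins known for directing the outer cells of the early embryo towards the placental lineage. The 10 genes described here are CDX2, GATA2, GATA3, TFAP2A, TFAP2C, KLF5, ELF3, HAND1, EOMES and DLX3, chosen by exact symbol in 2 tables of gene values. The cow table (22845 rows) held 9 of them and no row named CDX2, and the pig table (21867 rows) held all 10. Total RNA was sequenced from the cow, Bos taurus, and from the pig, Sus scrofa, as oocytes, 2-4 cell and 8-16 cell embryos, morulae and blastocysts. Of the 10 groups (2 species, 5 stages) every one was a single library, so no test was made and no difference has a replicate check. Breed, sex, the number of oocytes or embryos per library and the way embryos were produced are not given in the sources used here.

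The trophectoderm is the epithelium that encloses the blastocyst cavity, and the inner cell mass is the group of cells inside it. In the mouse, outer cells have low Hippo signalling, so the coactivators YAP1 and WWTR1 (TAZ) enter the nucleus and act with TEAD4 on genes such as CDX2 and GATA3. AP-2 factors (TFAP2A, TFAP2C), KLF5 and ELF3 are known from epithelial and trophoblast cells, and EOMES, HAND1 and DLX3 from trophoblast stem cells and later placental cell types.

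Values are RPM, a gene's reads per 1000000 sequenced in that library. They are not scaled to gene length, so they follow a gene across stages of its own species and do not rank genes against each other. Libraries held between 3002751 reads (pig morula) and 14182046 reads (cow blastocyst). A count of 0 allows up to 3 reads, which set floors from 0.212 RPM (cow blastocyst) to 0.999 RPM (pig morula). Intervals in brackets are 95% Wilson intervals of the RPM, those of folds are exact conditional 95% intervals, and both cover counting error only. A gene was compared between 2 stages when it had 1 RPM or more in either, and was called higher or lower at a difference of log2(RPM + 1) of 2 or more in size. Mitochondrial genes took 4.40% of reads in the cow oocyte library and 30.2% in the cow blastocyst library, against 6.06% and 18.6% in pig, and RPM count these reads in the total.

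Most of the factors were higher in the blastocyst library than in the oocyte library. In cow 5 of the 9 were called higher and none lower (GATA2, GATA3, TFAP2C, KLF5 and DLX3), with 2 compared and not called (TFAP2A, ELF3) and 2 too low to compare (HAND1, EOMES). Of all 12738 cow genes compared, 40.2% were called, 21.8% higher and 18.4% lower. In pig 7 of the 10 were called higher (CDX2, GATA2, GATA3, TFAP2A, TFAP2C, KLF5 and ELF3), EOMES was called lower, and HAND1 and DLX3 were too low to compare. Of 12512 pig genes compared, 45.2% were called, 26.0% higher and 19.2% lower. A factor seen only at the blastocyst passes the minimum through that library alone, so these counts describe the genes and give no support of their own. Fewer cells making an RNA and less of it per cell cannot be told apart in libraries that do not separate cells.

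**Figure D1:**
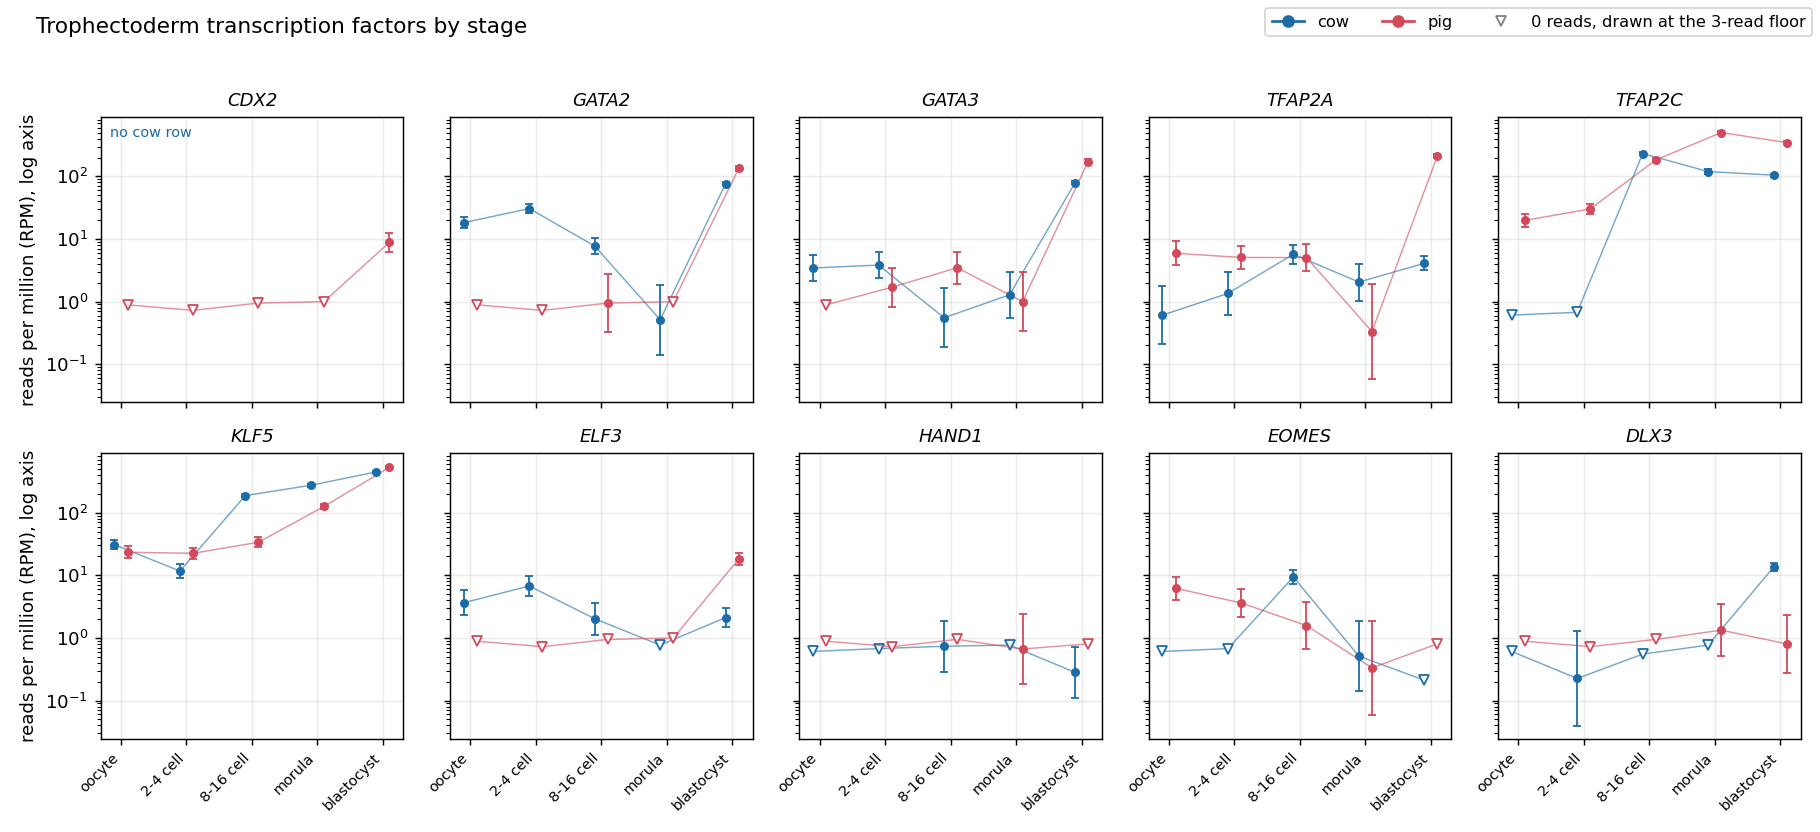
RPM of each factor (log axis) at the 5 stages in cow (blue) and pig (red). Points are single libraries with 95% Wilson intervals from read counts, and open triangles mark 0 reads, drawn at the floor of 3 reads. GATA3 reaches its highest value at the blastocyst in both species, whereas TFAP2C is at 232 RPM in the cow 8-16 cell library and at 502 RPM in the pig morula library.

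The steps at which factors were called are given next, beside the share of all genes called. Between oocyte and 2-4 cell libraries no factor was called. There 0.374% of cow genes were called (0.196% higher, 0.178% lower) and 5.43% of pig genes (3.26% higher, 2.17% lower). Between 2-4 cell and 8-16 cell libraries TFAP2C, KLF5 and EOMES were called higher in cow, 3 of 7 compared. There 27.2% of the cow genes compared were called (12.6% higher, 14.6% lower). In pig TFAP2C alone was called higher, 1 of 5 compared, where 4.87% of genes were called (4.33% higher, 0.543% lower). None was called higher between 8-16 cell and morula libraries, while GATA2 and EOMES were called lower in cow and TFAP2A in pig. At that step 11.8% of cow genes were called (6.67% higher, 5.15% lower) and 23.3% of pig genes (12.0% higher, 11.3% lower). Between morula and blastocyst libraries GATA2, GATA3 and DLX3 were called higher in cow, 3 of 7 compared. There 23.4% of the cow genes compared were called (11.9% higher, 11.5% lower). In pig CDX2, GATA2, GATA3, TFAP2A, KLF5 and ELF3 were called higher, 6 of 8 compared. There 27.6% of the pig genes compared were called (13.8% higher and 13.8% lower). No factor was called lower at this last step.

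Another scaling moved the balance of calls over all genes at early and later steps. Of the called cow genes 52.4% were higher at the first step and 46.5% at the second, where median scaling gave 22.5% and 61.2%. In pig the first step had 59.97% (73.3% with median scaling) and the second 88.9% (62.9% with quantile normalisation). From the 8-16 cell stage to the morula 56.4% were higher in cow and 51.7% in pig, or 47.1% and 43.9% with median scaling. Over the whole cow course 54.2% were higher, or 62.9% with non-mitochondrial scaling. No call of a factor changed direction under any scaling.

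**Figure D2:**
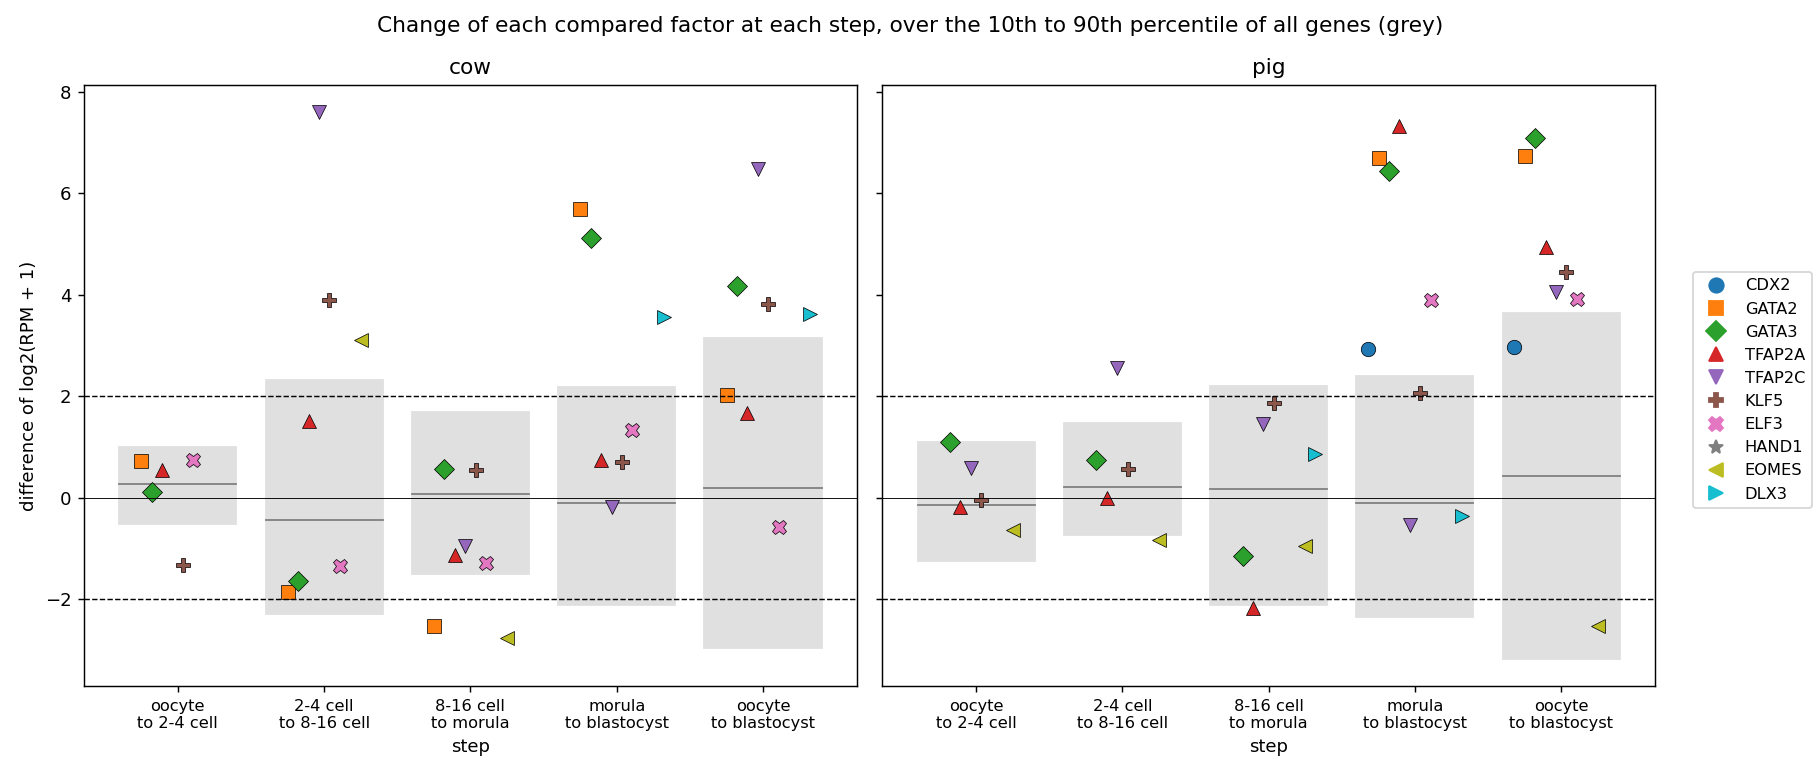
Difference of log2(RPM + 1) of each factor compared at each consecutive step and over the whole course, in cow (left) and pig (right). Grey boxes span the 10th to 90th percentile of all genes compared, with the median as a line, and dashed lines mark the limit of 2. HAND1 was too low to be compared at any step. GATA2 and GATA3 lie above 5 at the step from morula to blastocyst in both panels, and TFAP2C lies at 7.60 at the second cow step.

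GATA2 and GATA3 are zinc finger proteins that bind GATA motifs and act in trophoblast and blood cells. GATA3 lies on cow chromosome 13, 15984602 to 16002940, and pig chromosome 10, 63367663 to 63390560, both on the minus strand. In cow it had 3.45 RPM in the oocyte library (2.15 to 5.52), 3.83 at the 2-4 cell stage, 0.552 in 8-16 cell embryos from 3 reads, 1.28 in morulae and 78.8 in blastocysts (74.3 to 83.5). The blastocyst interval was above those of the 4 earlier libraries, among which the 8-16 cell value was 6.94-fold below the 2-4 cell value (2.01 to 36.9). That log2 difference of -1.64 was not called, and was -2.04 with a pseudocount of 0.5 RPM. The step from the morula was 61.4-fold (26.2 to 189.5), a log2 difference of 5.13. In pig GATA3 went from 0 reads to 1.69 RPM, 3.47 RPM, 0.999 RPM (3 reads) and then 173 RPM in the blastocyst library (160 to 187). That last step was 173-fold (58.9 to 840.2), and the blastocyst was again far above the 4 earlier libraries.

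GATA2 was also called higher at the last step in both species, after different earlier values. It lies on cow chromosome 22, 60016985 to 60024586, and pig chromosome 13, 71984067 to 71999729, both on the plus strand. In cow it stood at 18.3 RPM in the oocyte library (14.9 to 22.4), 30.6 at the 2-4 cell stage (25.9 to 36.2) and 7.73 at the 8-16 cell stage (5.72 to 10.4). The morula had 2 reads (0.513 RPM) and the blastocyst 76.9 RPM (72.5 to 81.6). No 2 neighbouring values in the order of these 5 libraries had overlapping intervals. The fall from the 8-16 cell stage to the morula was 15.1-fold (3.92 to 128.5), and the gain to the blastocyst was 149.98-fold (41.4 to 1240.0). That fall had a log2 difference of -2.53, or -1.21 with a pseudocount of 5 RPM in place of 1. Over the whole course cow GATA2 was 4.21-fold higher (3.40 to 5.28), a log2 difference of 2.02 that lies at the limit of 2. With all libraries thinned to equal depth this difference was 1.99, and with a pseudocount of 5 RPM it was 1.82.

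Pig GATA2 had 0 reads in the oocyte, 2-4 cell and morula libraries, 3 reads at the 8-16 cell stage (0.948 RPM) and 499 reads in the blastocyst library (134 RPM, 123 to 146). The blastocyst value was at least 134-fold above the morula floor. The pig GATA2 span overlaps EEFSEC, a gene of selenoprotein synthesis on the other strand, whose row held 6, 14, 21, 37 and 466 reads over the same 5 stages. Handling of strand in the counting is not given in the sources used here, so reads of the 2 genes cannot be told apart in pig. No other factor overlapped another row in either table.

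TFAP2A and TFAP2C encode AP-2 alpha and AP-2 gamma, and they parted in both species. TFAP2C, which is active in mouse trophectoderm from cleavage stages on, lies on cow chromosome 13, 59903160 to 59912715, and pig chromosome 17, 57164371 to 57175315. In cow it had 0 reads in the oocyte and 2-4 cell libraries, then 232 RPM in 8-16 cell embryos (219 to 245), 119 in morulae (109 to 131) and 105 in blastocysts (99.5 to 110.2). Its appearance was at least 343-fold above the 2-4 cell floor, a log2 difference of 7.60, and its intervals in the last 2 libraries overlapped. Their ratio was 1.14-fold (1.02 to 1.26). In pig TFAP2C was already present in the oocyte library at 19.8 RPM (15.6 to 25.2). It then stood at 30.2, 183 and 502 RPM up to the morula (477 to 528) and at 346 RPM in the blastocyst library (328 to 366). The largest of its pig steps was 6.05-fold (4.98 to 7.41), between 2-4 cell and 8-16 cell embryos, and the 1.45-fold lower blastocyst value (1.34 to 1.56) was not past the limit.

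TFAP2A lies on cow chromosome 23, 45480546 to 45499034, and pig chromosome 7, 7223100 to 7244883. In cow its values were 0.609 RPM (3 reads), 1.35, 5.71, 2.05 and 4.09 RPM from oocyte to blastocyst. Each of them overlapped in its interval with the next in order of level, and no cow comparison was called. The oocyte (0.207 to 1.79) and blastocyst (3.16 to 5.29) intervals did not overlap, a 6.72-fold higher value (2.19 to 33.5). This log2 difference of 1.66 was 2.24 with non-mitochondrial scaling and 2.05 with a pseudocount of 0.5 RPM, both past the limit. In pig TFAP2A had 5.92 RPM in the oocyte library (3.83 to 9.15), 5.07 at the 2-4 cell stage and 5.05 at the 8-16 cell stage, 1 read in the morula library (0.333 RPM, 0.0588 to 1.89) and 212 RPM in the blastocyst library (198 to 227). The pig blastocyst was thus 35.8-fold above the oocyte (23.0 to 59.0), with 1 read just before it. The difference from the 8-16 cell stage to that read was -2.18, or -0.91 with a pseudocount of 5 RPM. From the morula the ratio was 637-fold, and 1 read leaves its interval wide (114 to 25184).

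KLF5, a Krüppel-like zinc finger protein needed for the mouse trophectoderm, was above 5 RPM in all 10 libraries. Among the 10 factors it was the only one of which this holds. It lies on cow chromosome 12, 48104081 to 48123367, and pig chromosome 11, 45369575 to 45388299. Cow KLF5 went from 30.8 RPM in the oocyte library (26.3 to 36.1) to 11.7 RPM at the 2-4 cell stage (8.93 to 15.4), and then to 188, 274 and 449 RPM (438 to 460). The step to the 8-16 cell stage was 16.0-fold (12.1 to 21.6), and no neighbouring values in its order overlapped. Pig KLF5 had 23.4 RPM in the oocyte library, 22.5 at the 2-4 cell stage (18.3 to 27.5) and 33.8 at the 8-16 cell stage (28.0 to 40.8). The intervals of the last pair did not overlap, and their log2 difference of 0.57 was not called. It then had 126 RPM in the morula library (114 to 139) and 529 RPM in the blastocyst library (506 to 553). Its last step was 4.20-fold (3.76 to 4.70), a log2 difference of 2.06 that is just past the limit.

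ELF3, an ETS factor of epithelial cells, had its highest value at different stages in the 2 species. It lies on cow chromosome 16, 70826736 to 70830809, and pig chromosome 10, 24237068 to 24243058. In pig it had 0 reads in 4 libraries and 68 reads in the blastocyst library (18.2 RPM, 14.4 to 23.1), at least 18.2-fold above the morula floor. In cow its highest value was 6.76 RPM at the 2-4 cell stage (4.73 to 9.65), which overlapped with 3.65 RPM in the oocyte library (2.31 to 5.77). It had 2.02 in 8-16 cell embryos, 0 reads in morulae and 2.12 in blastocysts (1.48 to 3.02). No cow step was called, and cow oocyte and blastocyst intervals overlapped.

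CDX2 and DLX3 are homeobox factors, CDX2 known for keeping the mouse trophectoderm and DLX3 for placental development. Pig CDX2 (chromosome 11, 5339722 to 5346081) had 0 reads in the oocyte, 2-4 cell, 8-16 cell and morula libraries and 33 reads in the blastocyst library (8.85 RPM, 6.30 to 12.4). This was at least 8.86-fold above the morula floor, a log2 difference of 2.92, and with a pseudocount of 5 RPM in place of 1 the difference was 1.39. A level under 0.999 RPM in the pig morula was not detectable at this depth. DLX3 (cow chromosome 19, 37294970 to 37300144, and pig chromosome 12, 26179428 to 26182932) had 1 read in the 4 earlier cow libraries together and 192 reads in the cow blastocyst library (13.5 RPM, 11.8 to 15.6), at least 17.6-fold above the morula floor. This difference was 3.56, or 1.83 with a pseudocount of 5 RPM. In pig DLX3 had 4 reads in the morula library (1.33 RPM, 0.518 to 3.43) and 3 in the blastocyst library (0.804 RPM, 0.274 to 2.37), with overlapping intervals.

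EOMES, a T-box factor of mouse trophoblast stem cells and of mesendoderm, had 0 reads in both blastocyst libraries. The floors there were 0.212 RPM (cow) and 0.804 RPM (pig). In cow (chromosome 22, 2112410 to 2117440) it appeared in 1 library, with 51 reads at the 8-16 cell stage (9.39 RPM, 7.14 to 12.3), at least 13.9-fold above the 2-4 cell floor. It was 18.3-fold lower (4.81 to 155.2) in the morula library, from 2 reads. With a pseudocount of 5 RPM these differences of 3.11 and -2.78 were 1.47 and -1.38. In pig (chromosome 13, 14209029 to 14216499) EOMES was highest in the oocyte library, at 6.22 RPM (4.07 to 9.51), followed by 3.62, 1.58 and 0.333 RPM (1 read). Neighbouring pig values overlapped, while the blastocyst was at least 7.73-fold below the oocyte, a log2 difference of -2.54 that was -1.10 with a pseudocount of 5 RPM. HAND1, a basic helix-loop-helix factor of trophoblast giant cells and the heart, held 8 reads in the 5 cow libraries together and 2 in the 5 pig libraries. Its highest value was 0.736 RPM in the cow 8-16 cell library (4 reads, 0.286 to 1.89), so no order of its stages was detectable.

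Since the 2 tables were scaled separately, the species were set side by side by shape, as the share of a gene's RPM summed over 5 stages that lies at each stage. GATA3 had 89.6% of its summed RPM at the blastocyst in cow and 96.6% in pig. For GATA2 the blastocyst share was 57.4% in cow and 99.3% in pig, for TFAP2A 29.6% and 92.8%, for KLF5 47.1% and 72.0%, and for ELF3 14.5% and 100%. TFAP2C had its largest share at the 8-16 cell stage in cow (50.9%) and in the morula in pig (46.4%). EOMES had 94.8% at the 8-16 cell stage in cow and 52.9% in the oocyte in pig. Counting 5 RPM as the onset, 2 of the 9 cow genes (GATA3 and DLX3) and 4 of the 10 pig genes (CDX2, GATA2, GATA3 and ELF3) first reached it at the blastocyst. Of the 9 genes in both tables, GATA2, GATA3 and KLF5 had their highest stage in common. With 1 library per stage, a difference between the species was not tested.

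**Figure D3:**
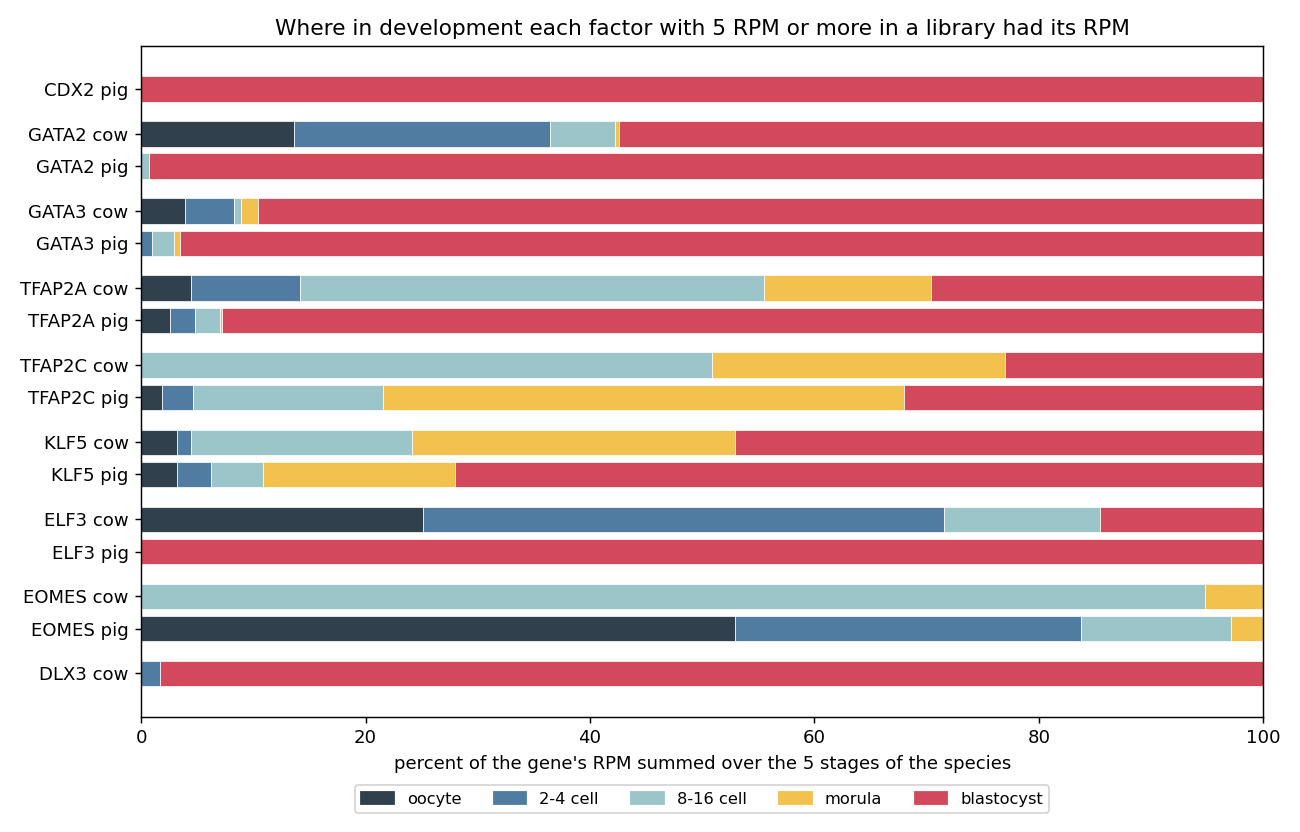
Share of each factor's RPM, summed over the 5 stages of its species, that lies at each stage (percent), for factors with 5 RPM or more in a library. The blastocyst part fills 57.4% of the cow GATA2 bar and 99.3% of the pig one, and it is missing from both EOMES bars.

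Likeness of patterns was measured as the root mean square difference of log2(RPM + 1), centred on the mean of each species, over 10 libraries. Among the 36 pairs of factors found in both tables GATA2 and GATA3 were closest, at 1.02, and GATA2 and TFAP2C farthest apart, at 3.59. The search for like patterns had 7526 candidate symbols. Outside the factors, PLOD3 (0.300), HDAC6 (0.309), CD2BP2 (0.313), C1orf198 (0.342) and TXNRD3 (0.382) were closest to the mean of the 9. With a pseudocount of 5 RPM, 0 of these 5 stayed among the closest 5. Closest to GATA3 were LAMA1, a basement membrane laminin chain (0.560), ANXA1, an annexin (0.569), and CAPG, an actin capping protein (0.574). For CDX2, in the 5 pig libraries alone, BPIFB6 and CXXC5 had the same read counts as CDX2 at every stage, and FAM20C differed by 0.0113. CDX2 was 1 of 101 pig rows that had 5 RPM or more at the blastocyst and 0 reads at the 4 earlier stages, out of 8621 rows with 5 RPM or more there.

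Of 20 listed genes of the Hippo pathway, introduced above for the mouse, 19 were in each table. From oocyte to blastocyst 6 of the 19 compared in cow were called higher and 1 lower, with a median difference of 0.78 against 0.18 for all genes. In pig 8 of 18 compared were called higher and 2 lower, with a median of 1.75 against 0.43. Of all genes compared over this course 21.8% were higher and 18.4% lower in cow, and 26.0% and 19.2% in pig. The same shares apply to the lists that follow. TEAD4, the DNA-binding partner of YAP1, had 0 reads in both oocyte libraries. It reached 5.89, 17.7 and 8.46 RPM in the last 3 cow libraries, and 10.4, 10.1, 47.0 and 38.9 RPM in the last 4 pig libraries. WWTR1 went from 1.01 RPM in the cow oocyte to 28.3 in 8-16 cell embryos, 441 in morulae and 199 in blastocysts. In pig WWTR1 had 0 reads in the oocyte, 35.6 RPM in the morula and 82.3 RPM in the blastocyst. Both genes were present a stage or more before the blastocyst, where GATA3 was highest. In the oocyte libraries, with 0 reads of TEAD4, 2 of the 9 cow factors (GATA2, KLF5) already had 5 RPM or more. In pig 4 of the 10 did (TFAP2A, TFAP2C, KLF5 and EOMES). A link between TEAD4 or WWTR1 and the factors was not tested. WWC1 (KIBRA), a scaffold that activates the pathway, was 42.9-fold higher in cow and, from 3 reads, 68.2-fold in pig (23.0 to 333.3), and cow NF2, another activator, was 12.2-fold higher. The kinase cofactor MOB1A was 174-fold higher in pig, from 1 read (30.8 to 6903), and 5.10-fold lower in cow. Pig SAV1, a scaffold of the same kinases, fell 23.4-fold. Pig YAP1 went from 309.7 to 129 RPM, a log2 difference of -1.26 that was not called, and the cow table held no row of that name.

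Genes that do the work of the trophectoderm, such as its keratins, junction proteins and pumps, were mostly called higher over the whole course. Of these genes 18 of 30 compared were called higher and 1 lower in cow, and 12 of 18 higher and 0 lower in pig, with median differences of 3.33 and 3.60. KRT8 and KRT18, the keratins of simple epithelia, had at most 5 reads in any earlier cow library and at most 14 in any earlier pig library. At the blastocyst KRT8 had 1490.3 RPM in cow and 3629 RPM in pig, and KRT18 had 1021 and 2681 RPM. Cow PAG2, a pregnancy-associated glycoprotein of the trophoblast, went from 0 reads to 98.6 RPM, and the ATPase subunit ATP1B3 was 104.7-fold higher. In pig the desmosomal cadherin DSG2 reached 515 RPM and the prostaglandin synthase PTGS2 reached 1809 RPM, both from 0 reads. At the blastocyst 27 of the 33 genes in the cow table and 18 of the 20 in the pig table had 5 RPM or more. SLC6A14, PAG11, PAG12 and TKDP1 had 0 reads in the cow blastocyst library, and SLC6A14 in the pig one. At the step from morula to blastocyst, where GATA2 and GATA3 were called higher, 17 of 29 compared were higher and 1 lower in cow, and 14 of 18 higher and 0 lower in pig.

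Further transcription regulators of the trophoblast went both ways. In cow 12 of 26 compared were called higher (46.2%) and 7 lower (26.9%), against 21.8% and 18.4% of all genes. In pig 10 of 21 were higher (47.6%) and 4 lower (19.0%), against 26.0% and 19.2%. TBX3, a T-box factor, was 238-fold higher in cow from 2 reads (65.7 to 1967) and 455.5-fold higher in pig from 1 read (81.4 to 18027). GRHL2, an epithelial factor, was 117-fold higher in cow from 3 reads (39.9 to 568), and the homeobox gene MSX2 was 48.1-fold higher in pig. Cow MSX1 was 353-fold lower, with 274 RPM in the oocyte and 0.776 in the blastocyst, and ID3 went from 43.8 RPM to 3 reads. Pig PPARG (87.0 RPM in the oocyte) and TP63 (245 RPM) ended at 0 reads, which was at least 108-fold and 305-fold lower.

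Relatives from the same gene families, some of them also in the other lists, were called higher in 10 and lower in 5 of 20 compared in cow. In pig 9 of 22 were higher and 3 lower. GATA6, known from the hypoblast, was at 0 reads in both oocytes and had 226 RPM (cow) and 261 RPM (pig) at the blastocyst. Cow GATA4 had 1.01 RPM in the oocyte and 6.21 in the blastocyst, not past the limit, and pig GATA4 was 8.32-fold lower (33.5 against 4.02 RPM). TFAP2B, another AP-2 gene, went from 34.3 RPM in the cow oocyte to 2 reads in the blastocyst, and KLF6 was 30.3-fold higher in cow. The ETS genes ELF2 and ELF4 were higher in both species, ELF2 by 10.7-fold in cow and 16.0-fold in pig. ELF4 was 24.4-fold higher in cow and went from 0 reads to 18.2 RPM in pig.

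**Figure D4:**
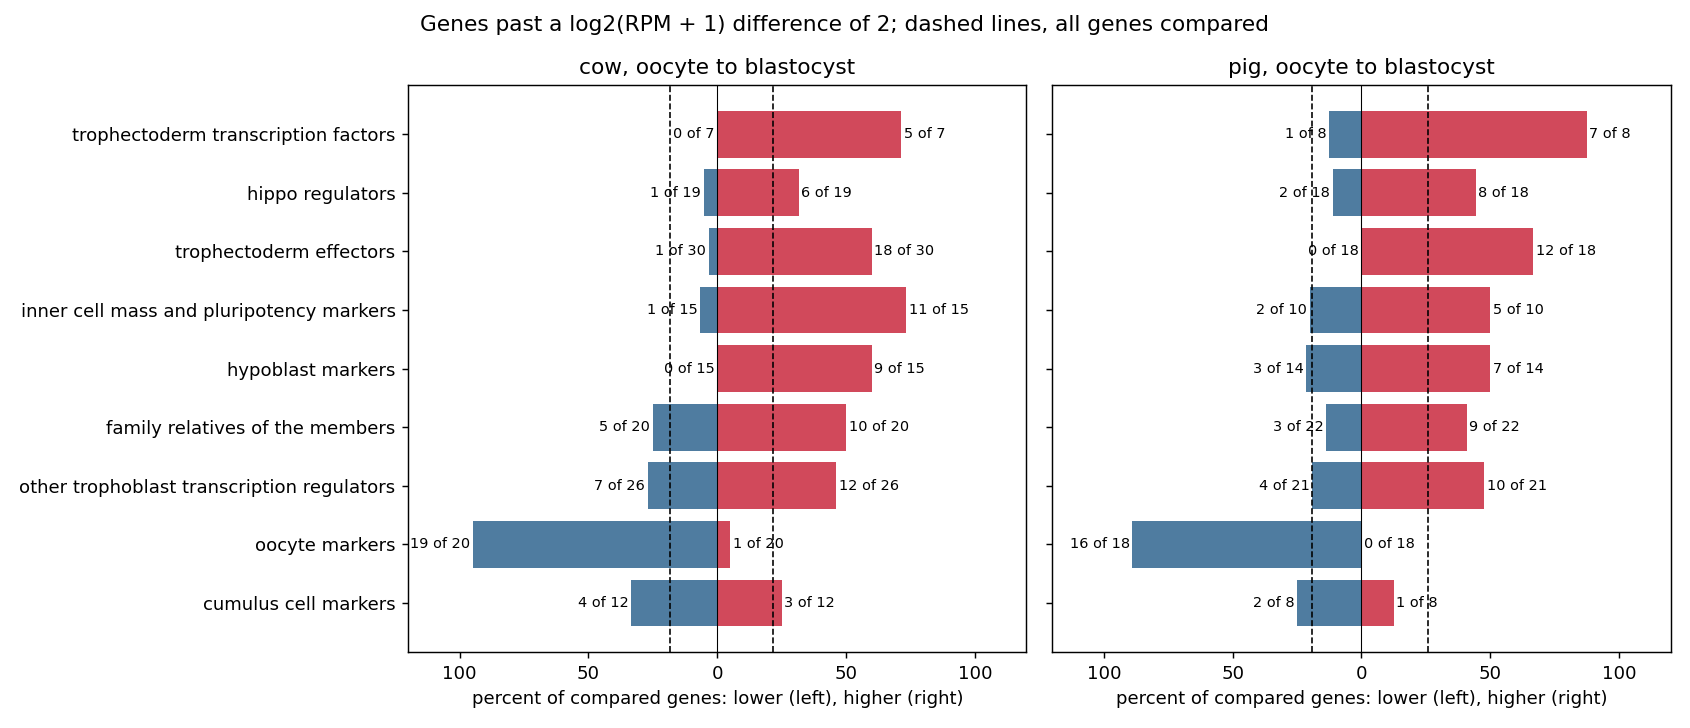
Percent of the compared genes of each list that were called higher (right, red) or lower (left, blue) from oocyte to blastocyst in cow and pig, with the counts beside the bars. Dashed lines mark the percent over all genes compared. Of the trophectoderm factors 5 of 7 compared in cow and 7 of 8 in pig were higher, and oocyte markers lie on the lower side in both panels.

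A blastocyst also holds inner cell mass and hypoblast cells, whose markers are given here, and their part in the factors' values was not tested. Inner cell mass and pluripotency markers were called higher in 11 and lower in 1 of 15 compared in cow, and in 5 and 2 of 10 in pig. Summed, they had 2865 RPM in the cow oocyte, of which DPPA3 held 2769, and 1052 RPM in the cow blastocyst. The pig sums were 556 and 429 RPM. From morula to blastocyst these markers were higher in 3 and lower in 1 of 16 compared in cow (18.8% and 6.25%). In pig they were higher in 2 and lower in 4 of 13 (15.4% and 30.8%). The median differences were 0.51 in cow and -1.07 in pig. Of all genes compared at this step 11.9% were higher and 11.5% lower in cow, and 13.8% and 13.8% in pig. In cow ESRRB reached 213 RPM, TFCP2L1 131 RPM, SPIC 109 RPM, ZFP42 91.7 RPM, POU5F1 42.4 RPM and SOX2 27.3 RPM at the blastocyst, and NANOG was highest at the 8-16 cell stage, at 116 RPM. In the pig blastocyst NANOG and SOX2 had 0 reads, TDGF1 had 117 RPM, ZFP42 32.7 RPM and KLF17 12.3 RPM, and DPPA5 was 8.83-fold lower than in the oocyte. Hypoblast markers were higher in 9 and lower in 0 of 15 compared in cow, and in 7 and 3 of 14 in pig. The cow sums were 141 RPM (oocyte) and 6281 RPM (blastocyst), FN1 holding 4843 RPM of the latter. The pig sums were 518 and 2018 RPM, with 1413 RPM from DAB2. SOX17 and FOXA2 were at 0 reads in the pig blastocyst, and FOXA2 was at 0 reads in the cow one. Cow PDGFRA was 60.4-fold higher, and pig LAMA1 went from 0 reads to 93.6 RPM.

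The stage labels were checked against oocyte markers, of which 19 of 20 compared fell in cow and 16 of 18 in pig, among them BMP15 and KPNA7 in cow, OOSP2 and NLRP9 in pig, and ZP2 and WEE2 in both. Cow OTX2, in that list and also a later embryonic factor, was 18.0-fold higher. Markers of cumulus cells, which surround the oocyte, were followed too. Their sum ranged from 93.3 RPM (blastocyst) to 478 RPM (oocyte) over the cow libraries and from 159.96 RPM (2-4 cell) to 632 RPM (blastocyst) over the pig libraries. They were higher in 3 and lower in 4 of 12 compared in cow, and in 1 and 2 of 8 in pig. In the oocyte libraries 9 of 20 were at 0 reads in cow, FOXL2, AMH and INHA among them, and 8 of 16 in pig, with INHA and NR5A1. STAR (157 RPM), HAS2 (141 RPM) and VCAN (116 RPM) in cow and VCAN (101 RPM), STAR (43.2 RPM), FSHR (11.3 RPM) and COL1A2 (5.03 RPM) in pig were present in the oocyte. LHCGR, CYP11A1 and COL1A2 in cow and FST in pig were called higher at the blastocyst. Their part in the factors' values was not tested.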

How the data were processed

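RNA sequencing values of 10 libraries, 5 stages in each of 2 species, were used. Per the labels' protocols, RNA came from a PicoPure kit, was amplified with the Ovation RNA-Seq System V2, and went through 8 PCR cycles. Such reads are not independent molecules. The submitters' processing notes name Trim Galore 0.6.4, HISAT2 2.1.0 and the assemblies UMD3.1 (cow) and Sscrofa11.1 (pig), with no roles. Positions are those of the authors' tables. Counting and annotation are not given in the sources used here.

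The authors deposited log2 values, 1 table per species. In every column 2 to the power of the second lowest value was 1 read, 100% of higher values were whole multiples of it (within 0.01 read), and 0 reads were written as 0.9 of a read, so the values are log2 RPM. Reads in gene rows were between 71.7% and 92.7% of a library. Differences used log2(RPM + 1) with 0 reads at 0.9 of a read, folds used read counts, and folds from 0 reads are against 3 reads. Of repeated symbols the row with the highest mean was used, and no factor was repeated. Calls and intervals were checked on simulated data (Python 3.11.15, numpy 2.4.6, pandas 2.3.3, scipy 1.17.1).

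Named beyond the factors were the 4 genes of each list with the largest oocyte to blastocyst difference per species, a few fixed symbols, and the closest patterns (5 for the mean, 3 for GATA3 and CDX2). A gene that this rule names is not reported here. CDX2 likeness used the pig table alone. Members and lists were chosen with earlier results of these data known. Planned looks at promoter and protein sequences were not run, since no sequence table was used here. Of the alternatives, the value of 0 reads was added after seeing the data.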

Additional observations from a re-analysis of the deposited data

How the results depend on the processing

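The 29 calls of a factor at a step, the whole course included, were recomputed under 10 other settings. All 29 kept their direction in each setting, and 19 stayed past the limit in all of them. A pseudocount of 5 RPM ended 10 calls (EOMES in 3 comparisons, GATA2 in 2 cow ones, DLX3 in 2, CDX2 in 2 and pig TFAP2A in 1), and equal depth ended 1, cow GATA2 over the whole course. The other settings ended none. Cow TFAP2A over the whole course was gained with non-mitochondrial scaling and with a pseudocount of 0.5 RPM, which raised that count from 5 to 6, and cow GATA3 between 2-4 cell and 8-16 cell libraries (lower) with a pseudocount of 0.5 RPM, from 3 to 4. The settings that ended none were scaling to non-mitochondrial gene reads, median scaling, quantile normalisation, a pseudocount of 0.5, a limit of 1, a minimum of 5 RPM or none, and 0 reads taken as 0. The cause was not tested. A pseudocount of 0.5, a limit of 1, no minimum and 0 reads taken as 0 could not end a call. They only loosen the rule or widen differences, so calls kept under them give no check. Only rescaling, quantile normalisation or equal depth could have changed a direction. With the pseudocount of 5 RPM, calls from the 8-16 cell stage to the morula went from 2 to 0 in cow and from 1 to 0 in pig, and the cow whole course from 5 to 3. For pig lists, relatives went from 12 to 5, other regulators from 14 to 9 and cumulus markers from 3 to 0. A limit of 1 raised called factors in cow from 0 to 1, 3 to 7 and 2 to 4 at the first 3 steps. In pig they rose from 0 to 1 at the first step and from 1 to 4 at the third. Calls over all genes rose too, in cow from 42 to 1343 of 11226, 3372 to 7801 of 12405 and 1458 to 5180 of 12334. Those in pig rose from 617 to 3101 of 11362 and from 2968 to 7189 of 12746. With that limit the Hippo list went from 7 to 14 in cow and from 10 to 17 in pig, cow hypoblast markers from 9 to 14 and pig cumulus markers from 3 to 7. Cow onsets at the blastocyst went from 2 to 1 with an onset of 1 RPM and with non-mitochondrial scaling. The likeness list shared 0 of 5 symbols with a pseudocount of 5 RPM. The median oocyte to blastocyst difference of all genes was 0.18 in cow and 0.43 in pig, against 0.59 and 0.53 with non-mitochondrial scaling and -0.02 and 0.02 with quantile normalisation. No paired analysis was possible because each group had 1 library, and no library could be left out.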

Other observations

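In the RefSeq annotation of the cow assembly ARS-UCD2.0, CDX2 lies between URAD and PDX1. The cow table held 1 row between its rows of these names, an Ensembl identifier without a symbol (ENSBTAG00000001819, chromosome 12, 32317772 to 32322605, plus strand). It had 0.609 RPM in the oocyte library (3 reads), 2.93 RPM at the 2-4 cell stage (1.71 to 5.01), 0.368 RPM at the 8-16 cell stage (2 reads), 0.513 RPM in the morula library (2 reads) and 15.3 RPM in the blastocyst library (217 reads, 13.4 to 17.5). No file used here pairs the identifier with a symbol, so the row was not assigned to CDX2 and entered no count.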
